A study of Mus musculus with 16 samples.

Results

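The response of LKB1 knockout mouse liver to AICAR was measured on 4 of the 16 arrays of the study: 2 arrays of knockout livers after AICAR and 2 of knockout livers after its vehicle, saline. The arrays were chosen by their labelled genotype and agent. All livers came from male FVB mice aged 10 weeks, and the knockout mice carried an LKB1 lox/lox genotype, named in the sample titles as a knockout restricted to the liver. Neither the Cre driver nor the dose, route or time of treatment is named in the labels, and no array is tied to a particular animal. A second baseline was taken from 2 arrays of knockout livers of the same strain, sex and age given mineral oil, which is the vehicle of another agent of the study. The same contrast was also read in wild-type FVB males of that age, on 2 AICAR and 2 saline arrays, which share no array with the knockout comparison.

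LKB1, the product of Stk11, is the main liver kinase that phosphorylates and activates AMPK, the AMP-activated protein kinase, and a family of related kinases. AICAR is a nucleoside that cells take up and that adenosine kinase turns into ZMP, an analogue of AMP, which binds AMPK and also AMP-sensitive enzymes such as fructose-1,6-bisphosphatase. In liver AMPK is known for restraining lipid synthesis and glucose output, and for acting with the nuclear receptor CAR on drug-metabolising enzymes. The comparison addresses which transcripts differ after AICAR in livers that lack LKB1.

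The 2 knockout saline arrays could not be told from repeat measurements of 1 RNA. A true difference between RNAs should show on both probes of a gene. Between these arrays the differences on 1904 probe pairs correlated at r = 0.011 (95% interval -0.034 to 0.056), while each of the other 119 array pairs reached at least 0.471. The SD of their log2 differences was 0.122, against at least 0.306 within every other group. They were averaged and counted as 1 sample, so the knockout saline group has no spread of its own, and each knockout p-value rests on the spread pooled over the other groups. Replicates are labelled as biological, but no label names separate animals, so p-values measure the spread between these samples, which may be partly technical. Across all arrays the median signal lay between 172.4 and 213.7, and 12233 to 13730 of 25697 probes were detected, with 12233 to 13330 on the knockout AICAR, saline and oil arrays. Precision is limited by having 2 arrays in each group. Values below are normalized log2 signals, and differences are in log2 units, so that a difference of 1 doubles the signal. Stk11 itself had 9.54 and 9.23 on the knockout AICAR arrays, 9.08 and 9.30 in saline and 9.10 and 9.03 in oil, while the wild-type AICAR and saline arrays lay between 10.26 and 10.38. Its AICAR minus saline difference in the knockout was 0.20 ± 0.23 (SE; limma adjusted p = 0.815), and where its probe lies relative to the deleted part of the gene is not known here.

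Among called features, more rose than fell after AICAR in livers without LKB1, while over all tested features 5150 differences from saline were above 0 and 6188 below. Among the genes that rose were Chac1, which degrades glutathione in the amino acid stress response, Ampd1, which deaminates AMP to IMP, the immediate early genes Fosb, Fosl1, Dusp1 and Zfp36, and Hspa5, the main chaperone of the endoplasmic reticulum. Igf2, a growth factor of fetal liver, was among the few that fell. Limma called 136 of 11338 tested features (1.2%) at an adjusted p under 0.05 against saline, 112 higher (0.988%) and 24 lower (0.212%). At an unadjusted p under 0.05 there were 1385 features, where chance alone gives 567. Gene symbols belonged to 104 of the features that rose and 22 of those that fell. The difference of the 112 ranged from 1.03 to 4.61 with a median of 1.99, and that of the 24 from -4.46 to -1.10 with a median of -1.99, beside a median of -0.05 over all tested features. The count depended on the 2 AICAR arrays. Without knockout AICAR replicate 2, 54 features were called, and without replicate 1, 84. Of the 136 calls, 50 were kept in the former and 67 in the latter.

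Nearly all of these calls were also made against the oil baseline. Both comparisons use the same AICAR arrays, so this is a check of the baseline and not a second experiment. Against oil, limma called 769 features (6.78%), 464 higher (4.09%) and 305 lower (2.69%). Against both baselines 129 features (1.14%) were called, 108 higher (0.953%) and 21 lower (0.185%). All 112 features that rose against saline had a positive difference from oil, with a median of 1.92, and 108 of them were called there. On those 108 both AICAR arrays lay above all 4 vehicle arrays, as they did for 15.7% of all tested features. All 21 features lower against both baselines lay below all 4, as did 17.4% of all tested features. Oil against saline within the knockout gave 0 called features (0%) and 764 at an unadjusted p under 0.05. The 4 that rose against saline without passing against oil were Sgk2, Pde4d, Zfp213 and Hormad2, named here after their values were seen. Their differences from oil were 1.00, 0.62, 0.00 and 0.36, the last against oil arrays not above background, and the oil arrays of each lay above its saline arrays. Leaving out 1 AICAR array gave 406 or 248 calls against oil and 82 or 53 against both baselines (without replicate 1 or 2), and leaving out 1 oil array gave 265 or 367 against oil. The standard error was smaller against oil, because the oil group enters as 2 samples and the saline group as 1. With both saline arrays as separate samples, 1032 features were called against oil and 652 against saline, so the count against oil stayed larger. The cause of the larger count was not tested.

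**Figure D1:**
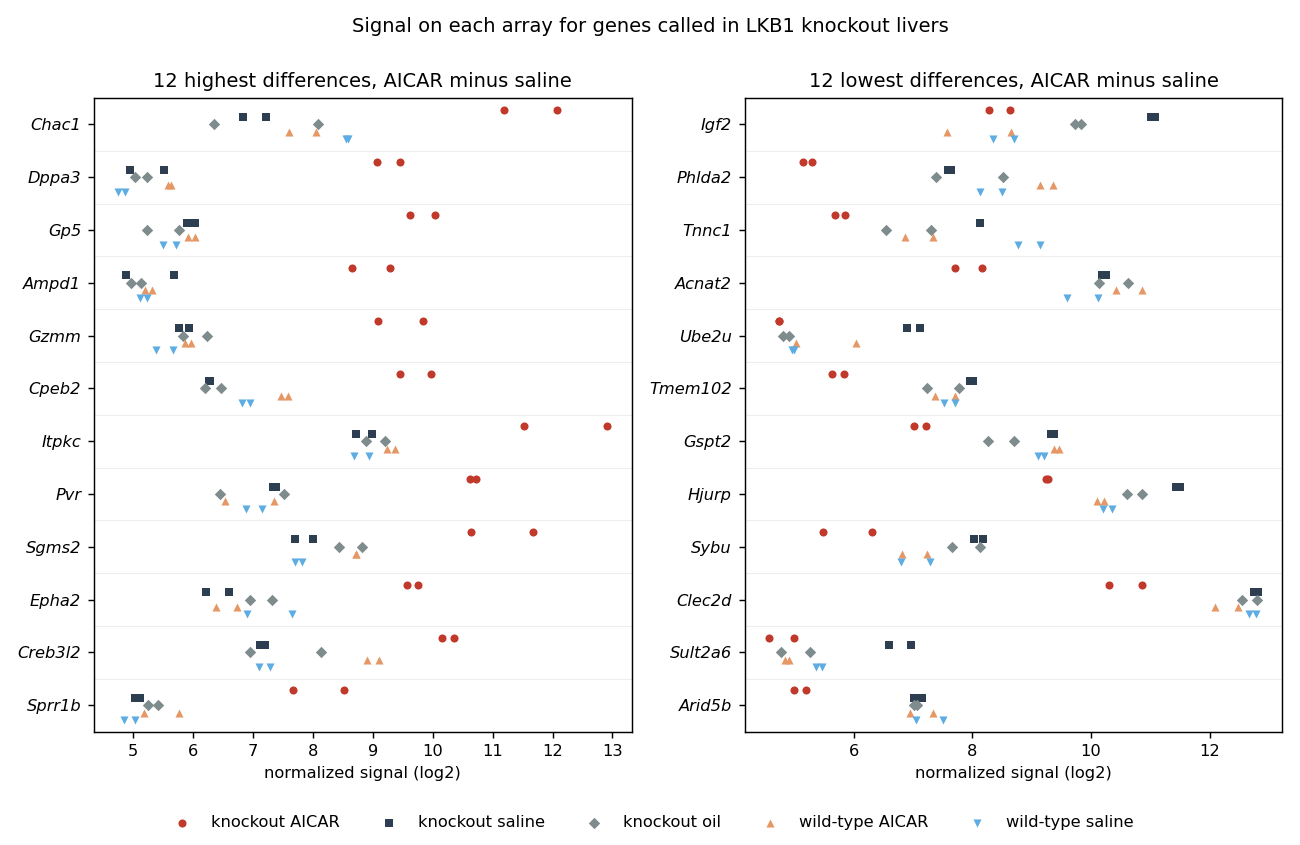
Normalized log2 signal on each array (horizontal axis) for the genes with a symbol that had the 12 highest and 12 lowest called differences, with 1 marker per array and 1 marker shape per group. On the left both knockout AICAR arrays lie to the right of all other groups, and on the right Ube2u and Sult2a6 are low in knockout oil as well as after AICAR.

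Chac1, a gamma-glutamyl cyclotransferase that breaks down glutathione and a known target of the transcription factor ATF4, had the highest difference of all tested features. Its signal was 12.08 and 11.20 on the AICAR arrays, 6.84 and 7.22 in saline and 6.35 and 8.08 in oil. The AICAR arrays lay above all 4 vehicle arrays, as they did for 15.7% of all tested features. The difference was 4.61 ± 0.79 from saline (SE; adjusted p = 0.019) and 4.42 ± 0.64 from oil (adjusted p = 0.00305). In wild-type livers Chac1 had 7.60 and 8.05 after AICAR and 8.58 and 8.55 in saline. The Chac1 call against saline was lost without either AICAR array (adjusted p up to 0.203 over the alternatives).

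Ampd1, the AMP deaminase best known from skeletal muscle, converts AMP to IMP and thus acts on the class of nucleotide that AICAR imitates. Its signal was 9.28 and 8.66 after AICAR. In saline it was 5.68 and 4.88, with 1 of the 2 arrays above background, and in oil 5.13 and 4.96, with neither above background. The difference from saline was 3.69 ± 0.34 (adjusted p = 0.00107), and Ampd1 was at least 8.99-fold higher than in oil. A bound of this kind is given where a group was not above background: it sets the brighter mean against the lowest signal detected on the dim arrays, or the dim probe's own signal where that is higher. Such bounds hold for the background-corrected values. Wild-type livers had 5.20 and 5.31 after AICAR and 5.23 and 5.11 in saline. Ampd1, Epha2 and Gp5 were the only 3 of 39 called named genes that stayed called in every alternative in which they were tested.

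Gp5, which encodes glycoprotein V of the platelet receptor for von Willebrand factor, gave the smallest p of the named genes. It had 9.62 and 10.04 after AICAR, 6.03 and 5.90 in saline and 5.24 and 5.76 in oil. Both AICAR arrays lay above all 4 vehicle arrays, as they did for 15.7% of all tested features. The difference from saline was 3.87 ± 0.27 (adjusted p = 0.000277). Epha2, a receptor tyrosine kinase for ephrin-A ligands, had 9.75 and 9.57 after AICAR against 6.60 and 6.22 in saline and 6.95 and 7.32 in oil. Gzmm, a granzyme of natural killer cells, had 9.84 and 9.08 against 5.76 and 5.93 in saline and 6.23 and 5.84 in oil. On the same arrays 9 of 10 tested lymphocyte markers lay below 0 against saline, with a median of -1.03. Gzma and Gzmb, the granzymes of that list, had no tested feature. Which cells the Gzmm signal came from was not tested.

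Dppa3, a maternal factor that guards DNA methylation in the early embryo, had 9.45 and 9.07 after AICAR and was not above background on any saline or oil array. It was at least 12.3-fold higher than in saline (adjusted p = 0.0161) and at least 11-fold higher than in oil. The Dppa3 call against saline was lost without either AICAR array. Sprr1b, a protein of the cornified envelope of skin, likewise rose from background, to 8.52 and 7.66, which was at least 5.48-fold over saline (adjusted p = 0.00978). In all, 20 of the 112 features that rose were not above background on the saline arrays, and 17 of them on no vehicle array of the knockout. The matching share of all tested features was not counted. Of the 17, Shd, Tph2, Mycbpap and Cplx1, named after their values were seen, were above background only on the knockout AICAR arrays. They passed the detection filter through those arrays alone, so this count is in part fixed by the filter.

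The other 5 of the 12 highest named rises were detected on every knockout vehicle array. Cpeb2, which binds cytoplasmic polyadenylation elements of mRNA, had 9.46 and 9.97 after AICAR, against 6.28 and 6.27 in saline. Itpkc, an inositol trisphosphate 3-kinase, had 11.52 and 12.91 against 8.72 and 8.98. The AICAR arrays of Itpkc lay further apart than those of the other 4. Both exceeded every vehicle array, as they did for 15.7% of all tested features. Pvr, the poliovirus receptor and a ligand of receptors on natural killer cells, had 10.62 and 10.73 against 7.33 and 7.38. Sgms2, a sphingomyelin synthase, had 10.65 and 11.67 against 8.0 and 7.70. Creb3l2, a transcription factor held in the membrane of the endoplasmic reticulum until it is cleaved, had 10.15 and 10.36 against 7.12 and 7.21. Creb3l2 is the 1 of these with a wild-type difference above 1, at 1.82 (adjusted p = 0.195). Its call against saline was lost without AICAR replicate 2.

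Promoter sequence was read for the genes with the highest rises that have an entry in the RefSeq promoter table, in build GRCm38.p6, and the 250 bases before the start site are printed 5′ to 3′ on the gene's own strand. The genes were chosen by their rise, so their shared movement on these arrays follows from the choice. Windows of Itpkc and Sgms2 were also read and are not printed. Itpkc had GCGTG on the forward strand at 217 bases before the start, and Sgms2 had no match to the elements below. Capitals mark matches, on either strand, to TGACGTCA (the full cAMP response element), TGATGCAA (the composite C/EBP and ATF4 element), CACGTG (the E-box), ACGTG (which lies within the E-box), GCGTG (the core of hypoxia and dioxin response elements), TGACNNNGC (the core of the antioxidant response element) and TATAAA (the TATA box). The Chac1 window is chr2:119350992-119351241 on the plus strand, the Gp5 window chr16:30310782-30311031 on the minus strand and the Gzmm window chr10:79688770-79689019 on the plus strand.
Chac1: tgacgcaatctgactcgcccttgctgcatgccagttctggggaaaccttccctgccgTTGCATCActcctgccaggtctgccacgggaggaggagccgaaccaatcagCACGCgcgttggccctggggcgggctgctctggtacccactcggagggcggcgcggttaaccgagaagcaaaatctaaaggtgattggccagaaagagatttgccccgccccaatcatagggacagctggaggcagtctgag
Gp5: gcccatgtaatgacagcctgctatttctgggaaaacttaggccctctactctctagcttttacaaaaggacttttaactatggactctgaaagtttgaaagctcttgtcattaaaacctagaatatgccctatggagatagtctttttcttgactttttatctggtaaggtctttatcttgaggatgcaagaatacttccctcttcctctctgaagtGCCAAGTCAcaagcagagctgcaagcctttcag
Gzmm: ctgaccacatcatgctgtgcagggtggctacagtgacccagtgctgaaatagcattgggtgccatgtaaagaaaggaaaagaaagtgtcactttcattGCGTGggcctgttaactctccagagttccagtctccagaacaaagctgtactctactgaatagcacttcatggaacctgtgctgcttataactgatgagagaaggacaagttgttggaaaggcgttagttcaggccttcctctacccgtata
In Chac1 the capitals are TGATGCAA on the reverse strand, beginning 193 bases before the start, and GCGTG on the reverse strand, at 142 bases. In Gp5 they are TGACNNNGC on the reverse strand and in Gzmm GCGTG on the forward strand. Such matches are letters in a window and show no binding. TGATGCAA was in 0.818% of 27025 promoters of this length and in 2 of the 84 called rises with an entry (2.38%), Chac1 and Il20rb. TGACGTCA was in 1.62% of all promoters and in 5 of the 84 (5.95%), Epha2, Dusp8, Mycbpap, Dusp1 and Ccnl1. GCGTG was in 28.2% of all promoters and in 41 of the 84 (48.8%), ACGTG in 16.6% and 25%, CACGTG in 6.05% and 7.14%, TGACNNNGC in 10.1% and 14.3%, and TATAAA in 13% and 7.14%. Base composition was not matched between the called genes and all promoters.

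The immediate early and cAMP-responsive genes were the list with the highest median. These genes answer growth factors, stress and cyclic AMP within minutes to hours through CREB and serum response factor. Of 28 tested members 25 had positive differences from saline, with a median of 1.14 beside -0.05 over all features. Of them 6 rose (21.4% beside 1.2% of all features) and 0 fell. The 6 include Fosb, which passed the detection filter only through its AICAR arrays. Against oil 15 rose and 0 fell (53.6% beside 4.09% of all features), with a median of 1.20. In wild-type livers the median was 0.12 and 0 members were called.

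Fosb, a component of the AP-1 transcription factor, was not above background in any knockout saline or oil array and had 8.33 and 8.07 after AICAR. Beside these 2 AICAR arrays it was above background on 1 wild-type CCl4 array, so its own rise brought it into the test. It was at least 5.91-fold over saline (adjusted p = 0.00188). Fosl1, another AP-1 component, was also below background in both vehicles, with 7.46 and 7.42 after AICAR, at least 3.49-fold over saline (adjusted p = 0.00547). Dusp1, a phosphatase that switches off MAP kinases, was already abundant: it had 14.45 and 14.81 after AICAR, 12.54 and 12.74 in saline and 11.33 and 11.75 in oil. Its difference was 1.99 ± 0.36 from saline (adjusted p = 0.0242) and 3.09 ± 0.29 from oil. Zfp36, which destabilises inflammatory mRNAs, had 13.15 and 12.96 after AICAR, 11.20 and 11.22 in saline and 10.84 and 10.95 in oil (difference from saline 1.84 ± 0.34, adjusted p = 0.0258). For each of these 4 genes the AICAR arrays lay above every vehicle array of the knockout, as they did for 15.7% of all tested features. Klf4 and Pde4d, named here to complete the count, were the other 2 members that rose.

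Atf3, a stress-induced repressor and the list's largest difference, is named after its values were seen. It had 11.91 and 12.16 after AICAR, 8.36 and 8.24 in saline and 7.53 and 9.12 in oil. Its difference from saline was 3.73 ± 0.89 and missed the threshold (adjusted p = 0.0758), while the difference from oil of 3.71 ± 0.72 passed it (adjusted p = 0.0138). Kiss1, the precursor of kisspeptin and a cAMP-responsive gene of liver, had 10.04 and 8.82 after AICAR against 9.17 and 9.34 in saline (0.17 ± 0.42, adjusted p = 0.926), so its groups overlapped. The number of list members called fell to 2 without either AICAR array, with medians of 1.08 and 1.21.

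The ATF4 list holds genes of the integrated stress response, in which phosphorylated eIF2 favours translation of ATF4, which then induces amino acid synthesis and transport. Of 30 tested members 25 lay above 0 against saline (median 0.63), 2 rose and 0 fell (6.67% beside 1.2% of all features). Against oil 8 rose (26.7% beside 4.09% of all features), and the wild-type median was 0.29. Atf4 itself had 10.76 and 10.73 after AICAR, 9.17 and 8.98 in saline and 8.78 and 8.84 in oil, a difference from saline of 1.67 ± 0.25 (adjusted p = 0.00978). Chac1 was the other member called. Fgf21, a hormone that liver releases in fasting and stress, had 10.96 and 11 after AICAR against 7.76 and 7.73 in saline and 7.49 and 7.85 in oil. This was a difference of 3.24 ± 0.88 from saline (adjusted p = 0.128) and 3.31 ± 0.72 from oil (adjusted p = 0.0211). Ddit3, which encodes CHOP and was named after its values were seen, differed by -0.12 ± 0.64 from saline (adjusted p = 0.968). Without knockout AICAR replicate 1, 1 list member was called, and without replicate 2, 0.

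**Figure D2:**
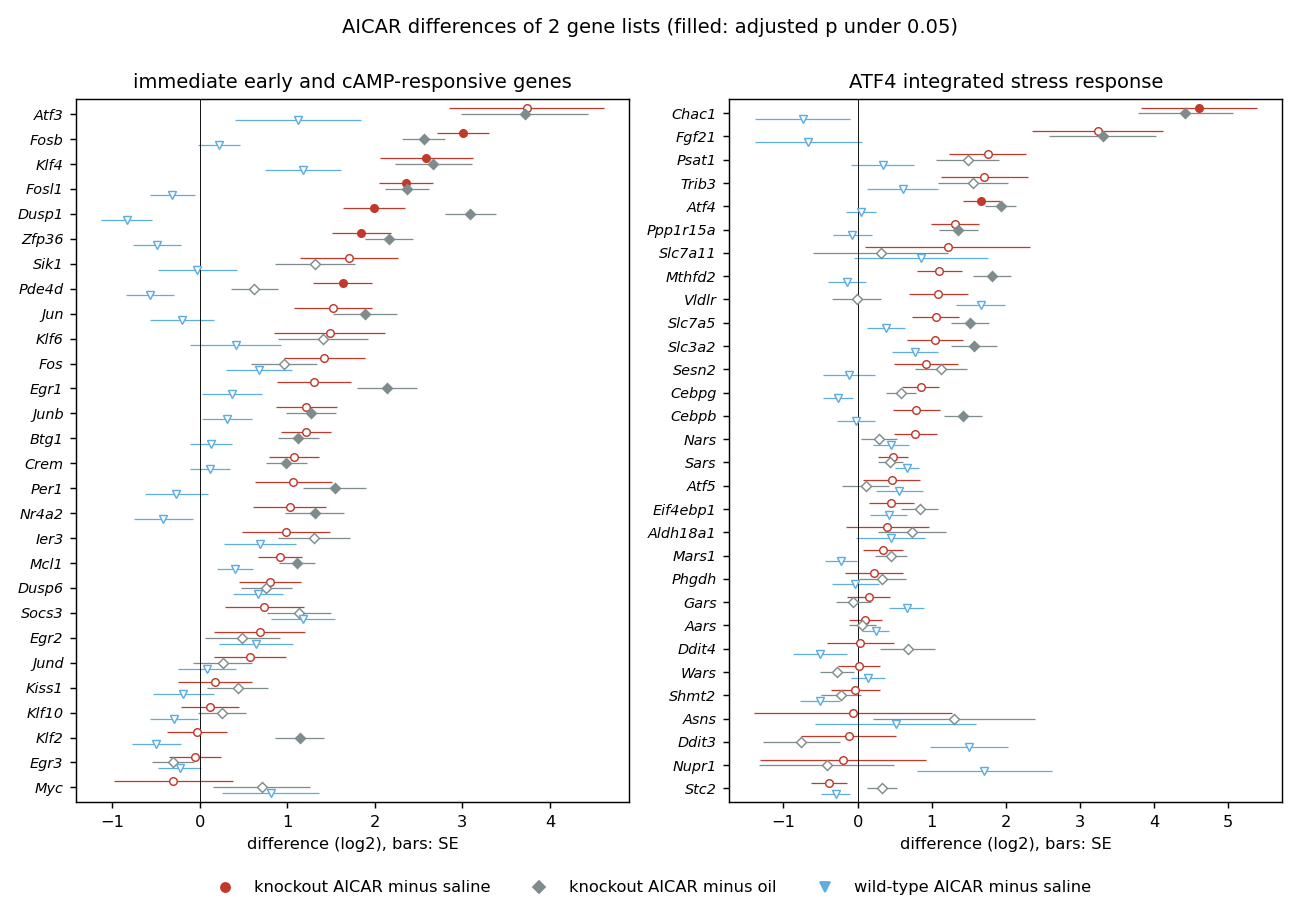
Differences in log2 units (horizontal axis, bars are standard errors) of the members of the immediate early and ATF4 lists, for knockout AICAR minus saline, knockout AICAR minus oil and wild-type AICAR minus saline, with filled markers for an adjusted p under 0.05. In the left panel 25 of 28 circles lie above 0 and the wild-type triangles spread around 0; in the right panel Chac1 and Atf4 are the filled circles. The 2 knockout comparisons share the AICAR arrays.

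Chaperones of the endoplasmic reticulum and genes of the XBP1 arm answer misfolded protein in that compartment. Of 26 tested, 3 rose and 0 fell (11.5% beside 1.2% of all features), with 22 above 0 and a median of 0.42. Hspa5 had 9.91 and 10.59 after AICAR, 7.72 and 7.51 in saline and 8.18 and 8.35 in oil, a difference from saline of 2.64 ± 0.33 (adjusted p = 0.0038). Dnajb9, its co-chaperone, differed from saline by 1.83 ± 0.34 (adjusted p = 0.0305). Ern1, which encodes the sensor IRE1, was at least 1.20-fold over saline, where it was not above background (adjusted p = 0.0378). Ern1 was above background on both knockout AICAR arrays and 1 wild-type saline array, so it passed the detection filter only through its AICAR arrays. In wild-type livers Hspa5 differed by 1.87 ± 0.27 and Dnajb9 by 1.62 ± 0.28, without passing the threshold (adjusted p = 0.0972 and 0.111). The test of the difference between genotypes gave 0.77 for Hspa5 and 0.21 for Dnajb9 (adjusted p = 0.618 and 0.921). The wild-type median of the list was 0.32. The call of Dnajb9 was lost without either AICAR array, and that of Ern1 without replicate 2. In all, Dnajb9 lost its call in 7 alternative fits and kept it in 22. Ern1 lost it in 14 and kept it in 14. The losses of Ern1 included the fits without background correction and on the authors' normalized values.

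Of 24 cytosolic heat shock genes, Hspb8 and Bag3, which act together in clearing misfolded proteins, rose (8.33% beside 1.2% of all features, median 0.22). Hspb8 had 14.35 and 14.34 after AICAR against 12.97 and 13.04 in saline, a difference of 1.34 ± 0.26 (adjusted p = 0.0369), and Bag3 differed by 1.24 ± 0.26 (adjusted p = 0.0498). The call of Hspb8 was lost without either AICAR array and that of Bag3 without replicate 2. Other settings removed these calls too. Hspb8 lost its call in 9 alternative fits and kept it in 20. Bag3 lost it in 16, robust variance and every kept probe among them, and kept it in 13. Of 17 circadian genes 2 rose (11.8% beside 1.2% of all features, median 0.24). Nfil3, a repressor of D-box genes, had 13.23 and 12.97 after AICAR, 10.80 and 10.94 in saline and 11.05 and 11.07 in oil, a difference from saline of 2.23 ± 0.26 (adjusted p = 0.00269). Cry2, a core clock repressor, differed by 1.66 ± 0.33 (adjusted p = 0.0369), a call lost without either AICAR array. In all, the call of Cry2 was lost in 10 alternative fits and kept in 19.

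Of the genes nearest to the action of AICAR, Ampd1 was the 1 called against saline. Of 31 tested members of purine synthesis, salvage and nucleoside transport, Ampd1 rose and 0 fell (3.23% beside 1.2% of all features). Of the 31, 15 lay above and 16 below 0. Against oil Ampd1 rose and 1 member fell (6.45% beside 6.78% of all features): Slc29a2, a nucleoside transporter named after its values were seen, at -1.22 (adjusted p = 0.00739). Adk, the kinase that makes ZMP from AICAR, had 14.64 and 14.69 after AICAR against 14.61 and 14.65 in saline (0.03 ± 0.25, adjusted p = 0.976). Among 12 LKB1 complex and AMPK subunit genes 0 were called; the catalytic subunit Prkaa2 had 8.14 and 8.10 against 8.06 and 8.16, and the regulatory subunit Prkab2 differed by 0.99 ± 0.36 (adjusted p = 0.266). Of 12 AMPK-related kinases 0 were called against saline. Nuak2 had 8.66 and 8.64 after AICAR against 9.84 and 9.90 in saline and 9.80 and 9.74 in oil, a difference of -1.22 ± 0.26 from saline (adjusted p = 0.0565) and -1.12 ± 0.22 from oil (adjusted p = 0.0128). The AICAR arrays of Nuak2 lay below all 4 vehicle arrays, as they did for 17.4% of all tested features.

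Genes of glucose output gave no call against saline. Of 28 members 18 lay above 0 with a median of 0.26. G6pc, the last enzyme of glucose release, had 15.73 and 15.76 after AICAR, 14.34 and 14.30 in saline and 13.55 and 12.84 in oil. Its difference was 1.42 ± 0.69 from saline (adjusted p = 0.459) and 2.55 ± 0.57 from oil (adjusted p = 0.0229). Against oil 3 members rose (10.7% beside 4.09% of all features), G6pc among them. Pck1, which commits oxaloacetate to glucose synthesis, differed from saline by 0.88 ± 0.74 (adjusted p = 0.727), the coactivator Ppargc1a by 0.30 ± 0.85 (adjusted p = 0.938) and Fbp1, the bisphosphatase that ZMP inhibits, by -0.01 ± 0.33 (adjusted p = 0.994). In wild-type livers G6pc differed by -1.44 ± 0.57 and Pck1 by -0.83 ± 0.61, and neither passed the test of the difference between genotypes (2.86 and 1.72, adjusted p = 0.328 and 0.62). Among 27 genes of glycolysis and glucose use 0 were called against saline, with Pdhb at 0.48 ± 0.28 (adjusted p = 0.544) and a list median of 0.06.

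The fixed lists of lipid genes had no call against saline, although Sgms2 and Acnat2, which are in none of them, were called. De novo lipogenesis had 20 of 26 members above 0 (median 0.20) and cholesterol synthesis 16 of 20 (median 0.38), with 0 called in each. Acly, which makes cytosolic acetyl-CoA, differed by 0.86 ± 0.33 (adjusted p = 0.301) and Sqle, an early committed enzyme of sterol synthesis, by 1.25 ± 0.80 (adjusted p = 0.597). The wild-type medians of both lists were below 0, at -0.40 and -0.26. Among 20 lipid droplet genes 4 rose against oil (20% beside 4.09% of all features) and 0 against saline. Hilpda, an inhibitor of lipolysis, had 12 and 12.02 after AICAR, 9.46 and 9.61 in saline and 8.75 and 10.16 in oil, which gave 2.48 ± 0.68 from saline (adjusted p = 0.132) and 2.56 ± 0.56 from oil (adjusted p = 0.0211). Fatty acid oxidation had 16 of 34 above 0 and 0 called.

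Igf2 was the 1 called member of the insulin and growth factor list (4.76% of 21, beside 1.2% of all features). It had 8.29 and 8.64 after AICAR, 11.01 and 11.09 in saline and 9.72 and 9.84 in oil, so the oil arrays lay between. It fell by 2.58 ± 0.40 against saline (log2; adjusted p = 0.0109) and by 1.31 ± 0.32 against oil (adjusted p = 0.0365). The call against saline was lost without AICAR replicate 1. Igfbp1, a fasting-induced binding protein named after its values were seen, had 10.99 and 10.93 after AICAR, 7.81 and 7.64 in saline and 6.47 and 7.47 in oil (3.24 ± 0.69 from saline, adjusted p = 0.0532; 3.99 ± 0.56 from oil, adjusted p = 0.0026).

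Acnat2, an acyl-CoA amino acid N-acyltransferase, fell from 10.18 and 10.26 in saline to 8.16 and 7.71, with oil at 10.13 and 10.62. Clec2d, a lectin-like ligand of an inhibitory receptor on natural killer cells, fell from 12.74 and 12.81 to 10.30 and 10.87. Gspt2, a translation termination factor, fell from 9.37 and 9.33 to 7.21 and 7.02, with oil at 8.27 and 8.71. Hjurp, the chaperone that loads the centromeric histone CENP-A, fell from 11.50 and 11.43 to 9.23 and 9.27. In these 4 genes the AICAR arrays lay below all 4 vehicle arrays, as they did for 17.4% of all tested features. Their adjusted p against saline lay between 0.00194 and 0.00978.

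Other falls ended below background. Phlda2, an imprinted gene that restrains placental growth, was at least 3.85-fold lower than in saline and 4.85-fold lower than in oil (adjusted p = 0.0334 and 0.00229). Arid5b, a DNA-binding subunit of a histone demethylase complex, was at least 2.65-fold lower than in saline, and Sorbs2, an adaptor of the actin cytoskeleton, at least 2.62-fold. These bounds hold for the background-corrected values. The calls of Phlda2, Arid5b and Sorbs2 against saline were lost without background correction and on the authors' normalized values. Their smallest differences over the alternatives were -0.96, -0.73 and -0.72. Tmem102, with 5.63 and 5.84 after AICAR against 7.96 and 8.02 in saline, was above background on 1 AICAR array, as were Tnnc1, the slow and cardiac troponin C, and Sybu, a kinesin adaptor. For 2 of the 12 lowest named genes the fall was called against saline alone. Ube2u, a ubiquitin-conjugating enzyme, had 4.74 and 4.74 after AICAR and 4.81 and 4.91 in oil but 7.12 and 6.89 in saline, and it was above background on no AICAR or oil array, so these 2 groups cannot be set against each other. Sult2a6, a sulfotransferase, showed the same layout, also with no AICAR or oil array of the knockout above background. Ube2u was above background on both knockout saline arrays, counted as 1 sample, on 1 wild-type AICAR array and on no other array. The calls of Ube2u, Sult2a6 and Sybu against saline were likewise lost without background correction. Other settings removed them too. Sybu lost its call in 21 alternative fits, with no probe filter, the stricter filter and robust variance among them, and kept it in 8. Sult2a6 lost it in 13 and kept it in 15, and Phlda2 lost it in 12 and kept it in 17. Ube2u lost it in 4 and kept it in 24. The largest called fall, -4.46 ± 0.63, was at ILMN_2906728, a probe without a gene symbol in the annotation, and it was called against oil too (-2.31, adjusted p = 0.0229).

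Of the 104 named features that rose, 88 were in none of the 39 gene lists, as were 21 of the 22 named features that fell. A further kept probe existed for 28 of the called genes, 41 probes in all, and 38 of them had the same direction at an unadjusted p under 0.05. The 1 with the opposite sign belonged to Il20rb. Called neighbours on a chromosome formed 3 pairs: Aoc2 with Aoc3, Chac1 with Ino80, and Zpr1 with Bud13.

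The wild-type comparison was used to ask whether the response differed by genotype. There limma called 1 feature (0.00882%), with 1210 at an unadjusted p under 0.05. Of the 112 features that rose in the knockout, all 112 had a larger difference there than in wild-type, where 79 were above 0, 10 exceeded 1 and 0 were called. Their median was 1.99 in the knockout and 0.21 in wild-type. These features were chosen in the knockout, so a smaller mean elsewhere is built into the choice, and the test of each is the interaction. That test called 34 features (0.3%), 28 higher in the knockout response (0.247%) and 6 lower (0.0529%), with 1039 at an unadjusted p under 0.05. It included 26 of the 112 rises and 6 of the 24 falls.

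Epha2 differed between the genotypes by 3.97 (adjusted p = 0.0159), with wild-type arrays of 6.73 and 6.39 after AICAR and 6.90 and 7.66 in saline. Dusp8, a MAP kinase phosphatase, differed by 3.53 (adjusted p = 0.0218) and Gp5 by 3.50 (adjusted p = 0.00984). Ampd1 also passed (adjusted p = 0.0159), but it was above background on no wild-type array of this comparison, so its fitted difference is not a measured size. Among the lower interactions Acnat2 was at -3.07 (adjusted p = 0.0218), and ILMN_2906728, a probe without a gene symbol, was the lowest at -5.51 (adjusted p = 0.0267). The interaction of Chac1, at 5.35, did not pass (adjusted p = 0.0775). Serpina4-ps1, a serpin pseudogene, differed by 5.05 (adjusted p = 0.0218). It fell by 3.94 ± 0.45 in wild-type (adjusted p = 0.0335), from 11.01 and 11.21 to 6.73 and 7.61. The knockout had 7.91 and 6.67 after AICAR against 6.25 and 6.11 in saline. The lowest detected signals on those saline arrays were 5.60 and 5.67. A fall of the wild-type size could not have been seen there, so the test cannot decide whether such a response was absent. The interaction count was 0 to 2 when any 1 of the wild-type saline or wild-type AICAR arrays was left out, 14 or 11 without knockout AICAR replicate 1 or 2, and 15 without either wild-type CCl4 array, which enter through the pooled spread.

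**Figure D3:**
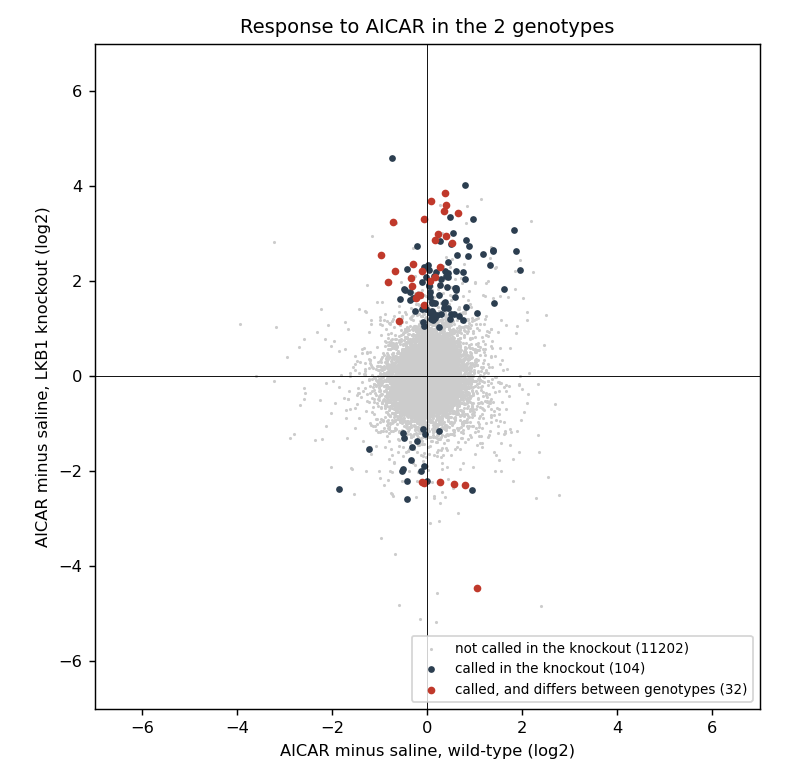
AICAR minus saline difference in log2 units in LKB1 knockout livers (vertical axis) against wild-type livers (horizontal axis), 1 point per tested feature. The 136 called in the knockout reach 4.61 and -4.46 on the vertical axis, and 32 of them, in red, also passed the test of the difference between genotypes.

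Most marker genes of blood cells had lower signals after AICAR than in saline in the knockout, beside the knockout calls against saline above, and none of these differences passed the test. In bulk tissue, fewer cells of a type and less RNA per cell cannot be told apart. All 14 neutrophil markers lay below 0 (median -1.25), as did 9 of 10 lymphocyte markers (median -1.03) and all 5 erythroid markers (median -0.93), with 0 called in each. Of these, Slc4a1 was above background in no knockout group compared. Camp, a neutrophil granule peptide, had 7.42 and 5.34 after AICAR, 8.95 and 8.93 in saline and 7.83 and 6.58 in oil. The mean signal of the neutrophil list was 6.90 to 7.92 after AICAR, 8.69 to 8.70 in saline and 7.46 to 8.01 in oil, and each member was above background in at least 1 of these 3 groups. Against oil the medians were -0.20, -0.35 and 0.00, and the knockout saline arrays had the highest mean signal of the 3 knockout groups for each of these lists. In wild-type livers the AICAR minus saline medians were 0.19 for neutrophil, -0.12 for lymphocyte and 1.32 for erythroid markers. The part of these markers in the called genes was not tested.

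Hepatocyte markers had 8 of 16 members above 0 and a median of 0.00, with a mean signal of 14.58 to 14.69 after AICAR and 14.66 to 14.67 in saline. Alb was the exception within that list, since its tested probe read only 5.23 and 6.15 after AICAR and 6.36 and 6.42 in saline. Kupffer cell markers had 11 of 15 below 0 (median -0.26) and stellate cell markers 23 of 25 (median -0.30). Sinusoidal endothelial markers had a median of -0.20 against saline and 0.44 against oil, opposite in sign. Cholangiocyte markers had a median of 0.34, led by Sox9, a ductal transcription factor, at 2.30 ± 0.49 (adjusted p = 0.0553). Pancreatic acinar markers had a median of 0.00. None of these 6 lists had a called member against saline.

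**Figure D4:**
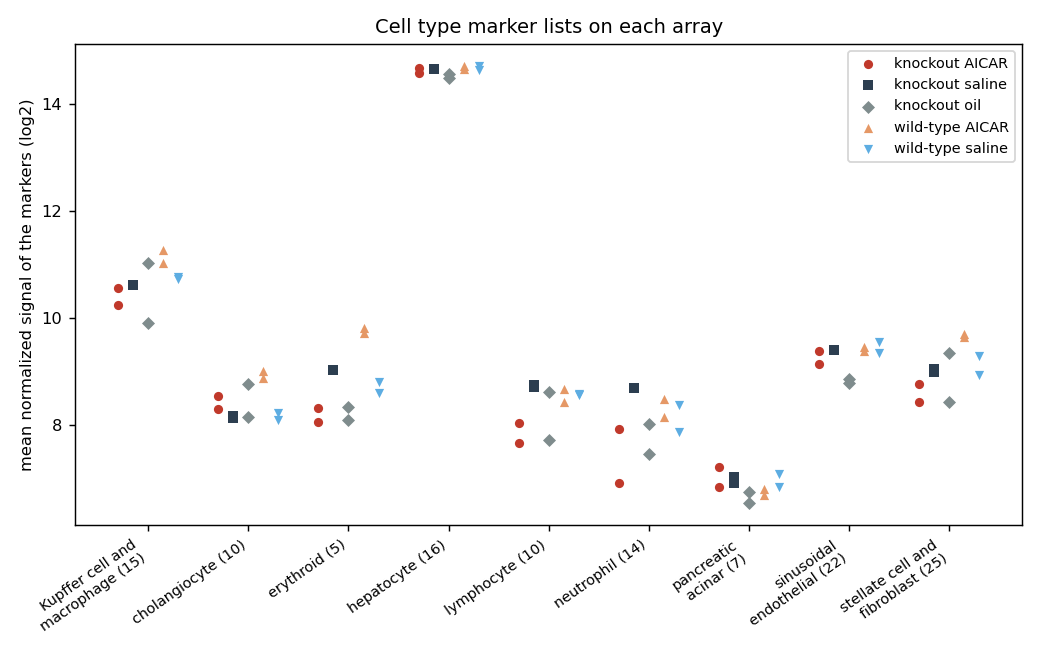
Mean normalized log2 signal of each cell type marker list (vertical axis) on each array, with 1 marker per array and the number of tested genes in brackets. Neutrophil, lymphocyte and erythroid means are lower on the knockout AICAR arrays than on the knockout saline arrays, while hepatocyte means lie between 14.49 and 14.72 in the 5 groups.

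Interferon response genes had 28 of 35 members below 0 against saline (median -0.46, 0 called) and 31 below 0 against oil (median -0.96), where 4 were called lower (11.4% beside 2.69% of all features). Irf1, an activator of interferon genes, had 11.60 and 11.27 after AICAR against 12.26 and 12.28 in saline (-0.84 ± 0.30, adjusted p = 0.263). For CAR and PXR with their target enzymes, 0 of 26 members were called against saline. Nr1i3, the gene of CAR, had 7.44 and 7.68 after AICAR, 8.90 and 8.94 in saline and 9.45 and 9.22 in oil, a difference of -1.36 ± 0.35 from saline (adjusted p = 0.113) and -1.77 ± 0.29 from oil (adjusted p = 0.00593). Its target Cyp2b10 had 10.46 and 11.64 against 10.81 and 10.73 (0.28 ± 0.92, adjusted p = 0.948), with overlapping groups.

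The remaining lists had 0 members called against saline. For growth arrest genes, Gadd45a differed by 1.76 ± 0.37 (adjusted p = 0.0508) and Cdkn1a, the cell cycle inhibitor p21, by 1.24 ± 0.31 (adjusted p = 0.0913), the latter called against oil (1.78, adjusted p = 0.00259). Hmox1, the haem-degrading enzyme of the NRF2 list, differed by 2.06 ± 0.49 (adjusted p = 0.0804), although that list's median was -0.10. Epas1, a hypoxia-inducible factor subunit, differed by 1.27 ± 0.28 (adjusted p = 0.0641), while its other kept probe differed by 0.27 ± 0.27. Respiratory chain genes had 20 of 39 above 0 and a median of 0.02, with Cycs, cytochrome c, at 0.63 ± 0.33 (adjusted p = 0.493). The other kept probe of Cycs differed by -0.13 ± 0.32. Cell cycle genes had 24 of 32 below 0 (median -0.30), and their wild-type median was lower, at -0.51.

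**Figure D5:**
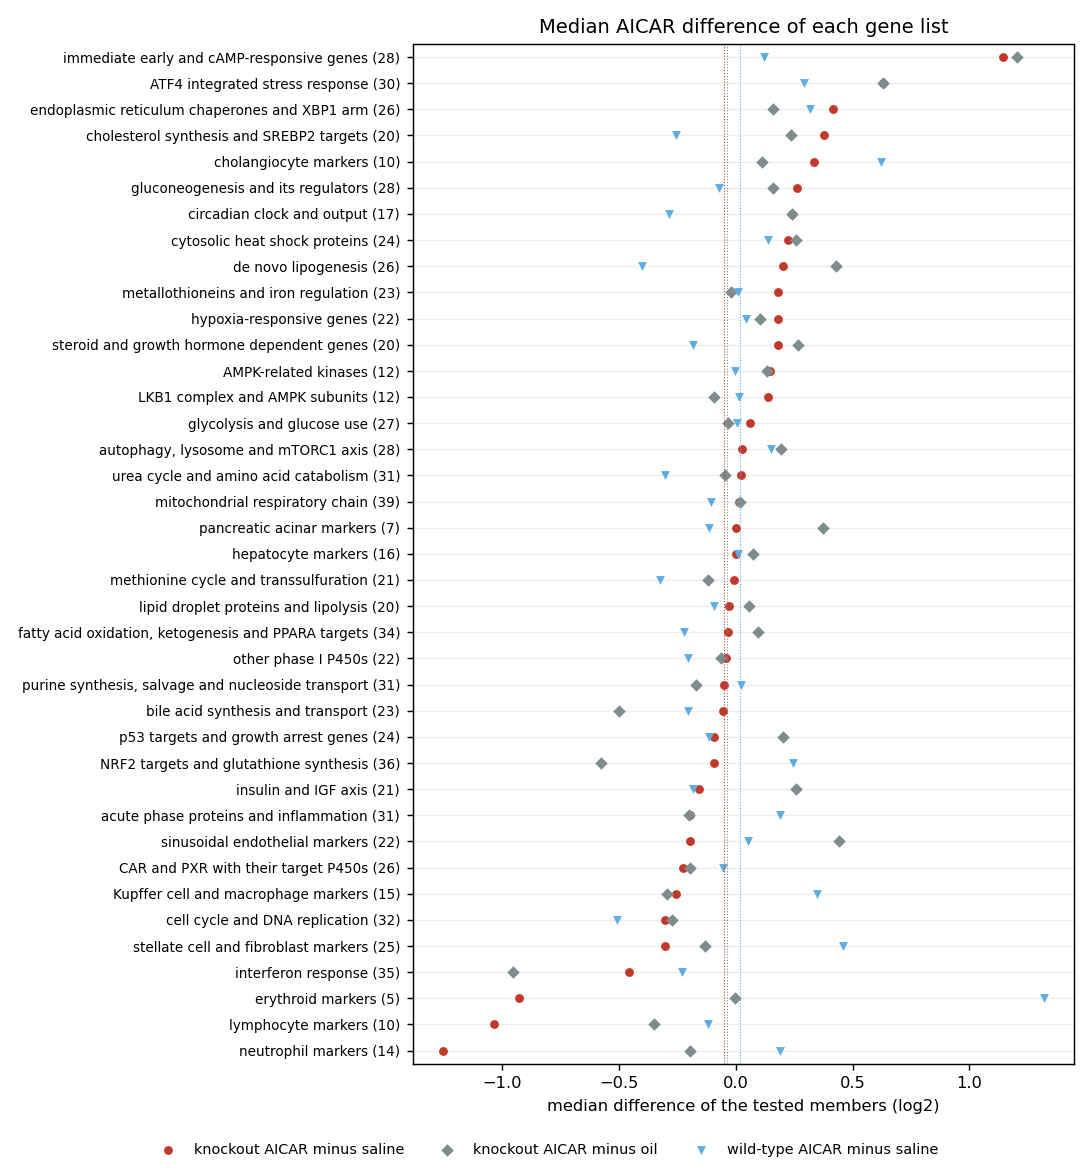
Median AICAR difference in log2 units (horizontal axis) of each gene list, with the number of tested members in brackets, for knockout against saline, knockout against oil and wild-type against saline; dotted lines are the medians of all tested features. Immediate early genes have the highest knockout medians, 1.14 and 1.20, and neutrophil markers the lowest against saline, -1.25.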

How the data were processed

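Liver RNA was hybridised to 16 Illumina arrays, per the labels. The table used was the deposited one of probe intensity without normalization, with a detection p-value per probe as deposited by the authors. GenomeStudio is named in the submitters' processing notes, with its version not given in the sources used here. Negative control intensities were inferred from the detection p-values, and the values were background-corrected, quantile-normalized and put on the log2 scale with neqc (offset 16; limma 3.58.1, R 4.3.3). Of 25697 probes, 23978 had 1 gene symbol in the annotation and 1719 had none. A probe was kept when its detection p was under 0.05 on at least 2 arrays (15411 probes), and each gene was represented by its kept probe of highest mean signal. This gave 11338 features, 902 of them without a symbol. Limma was fitted over 8 groups and 15 samples, with the 2 knockout saline arrays averaged, leaving 7 residual degrees of freedom. Benjamini-Hochberg adjustment ran over all features with a threshold of 0.05. The fit was tested on simulated data. Genes named are the 12 highest and 12 lowest called, up to 4 called members of each list (otherwise the 2 of smallest p), the 5 highest and lowest interactions, and a fixed set around LKB1, AMPK and glucose output; exceptions are marked in the text. The comparison, lists and rule were chosen with earlier results of these data known.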

Additional observations from a re-analysis of the deposited data

Results flagged for a closer look

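For 18 named genes the AICAR response differed between LKB1 knockout and wild-type livers by the limma interaction test (adjusted p under 0.05), given here as the knockout minus the wild-type response in log2 units. The difference was positive for Serpina4-ps1 (5.05), Epha2 (3.97), Ampd1 (3.60), Dusp8 (3.53), Gp5 (3.50), Pvr (3.39), Gzmm (3.22), Nfil3 (2.92), Dusp1 (2.82), Cpeb2 (2.79), Fosb (2.78), Fosl1 (2.67) and Slc2a2 (2.67). It was negative for Acnat2 (-3.07), Ube2u (-2.82), Gspt2 (-2.49), Tmem102 (-2.18) and Hjurp (-2.10). Ube2u was above background only on the 2 knockout saline arrays, counted as 1 sample, and on 1 wild-type AICAR array. The knockout saline signal of Serpina4-ps1 lay near the lowest detected signal, so a fall like that in wild-type could not have been seen there. Slc2a2, the glucose transporter GLUT2, passed no test within the knockout (1.00 from saline, adjusted p = 0.249, and 0.21 from oil). Its wild-type difference was -1.67. Its other kept probes differed from saline by 0.31 and 0.44 in the knockout. Groups of 2 arrays were too small to look for a single array far from the rest. As stated above, almost all interaction calls were lost when any 1 wild-type saline or AICAR array was left out. For Ampd1, Fosb, Fosl1, Gzmm and Ube2u at least 1 of the 4 groups in the contrast was above background on no array (for Ampd1 both wild-type groups, for Fosb these and knockout saline, for Fosl1 knockout saline, for Gzmm wild-type saline, for Ube2u knockout AICAR and wild-type saline), so their values are fitted differences and not measured sizes.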

How the results depend on the processing

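Counts of calls depended on how the spread was estimated, and 13 alternatives and 16 fits with 1 array left out were run. With both knockout saline arrays as separate samples, 652 features were called against saline, 13 for oil against saline, 118 for the interaction and 429 against both baselines. Adding the replicate block to that fit gave 630, 6, 96 and 416. The labels give the arrays only a shared number. Deviations of same-numbered arrays correlated at -0.159 between wild-type AICAR and saline, at 0.2 between knockout AICAR and oil, at 0.542 between knockout oil and CCl4 and at -0.475 between wild-type and knockout oil, so the sign differed between groups. For knockout saline, counted as 1 sample, no such check is possible. Array weights gave 689 against saline, 10 for oil against saline, 236 in wild-type, 234 for the interaction and 379 against both baselines. With only the knockout groups in the fit, and 3 residual degrees of freedom, 8 were called against saline, 158 against oil and 7 against both. The wild-type comparison needed another restricted fit, which called 38, so these counts rest on different samples. The wild-type count of 1 became 2 without background correction, 2 on the authors' normalized values and 0 without the probe filter, and a stricter filter gave 21 interactions. Against the mean of both vehicles, an alternative chosen after seeing the data, 599 were called, 133 of them also called against saline. Leaving out 1 array gave 54 to 159 calls against saline, 248 to 892 against oil, 0 to 5 for oil against saline, 0 to 2 in wild-type, 0 to 41 for the interaction and 53 to 144 against both baselines. In every one of these fits 41 of the 136 calls were kept. Of 39 called named genes, 156 of 1121 values lost the call and 0 reversed. Reversals were among uncalled genes (11 of 2084 values). Against the mean of both vehicles these were Ctrl at -0.06, Fbp1 at 0.07, Prkaa2 at -0.22 and Adk at -0.068. With 1 array left out, Cyp2b10 ranged from -0.31 to 0.87, Ctrl from -0.11 to 0.35, Kiss1 from -0.44 to 0.79, Fbp1 from -0.038 to 0.019 and Prkaa2 from -0.04 to 0.058. The cause of these changes was not tested. A p that misses the threshold with so few arrays does not show that values did not differ.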
